A study of Mus musculus with 6 samples.

Results

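The 34 genes described here are skeletal muscle genes, taken by symbol from a table of 17666 mouse genes: 6 myogenic regulators (Myog, Myod1, Myf5, Myf6, Pax7 and Cdh15) and 28 genes of the sarcomere, its scaffold, muscle metabolism and calcium handling. The rule names the genes and uses no measured value. RNA was sequenced from primary chondrocytes in a study of lipid metabolism in chondrocytes and skeletal growth. The 3 KO libraries came from Ppp1r15bPrx1;Rosa26mT/mG newborns and the 3 WT libraries from Prx1-Cre;Rosa26mT/mG newborns, both at P0. Every animal thus carried Prx1-Cre and the mT/mG reporter, which turns green where Cre has acted, and the groups differed in the deletion of Ppp1r15b. GFP-positive chondroprogenitors were isolated by flow sorting of digested knee joints and, per the growth protocol, grown in DMEM until they were mature chondrocytes, whereas the design text reads as RNA taken straight after the sort. Whether the replicates are different animals or cultures is not said in the labels, and the p-values reflect only how far these samples differ, which may be technical.

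Skeletal muscle of the limb descends from somite cells that migrate into the limb bud, while cartilage and connective tissue of the limb descend from the limb mesenchyme in which Prx1-Cre acts. The myogenic regulators Myod1 and Myf5 commit precursors to the muscle fate, and Myog then drives their differentiation and the switching on of contractile genes. In a muscle fibre the thin filaments of actin, troponin and nebulin slide along thick filaments of myosin, and the calcium that starts each contraction is let out of the sarcoplasmic reticulum by the ryanodine receptor once the acetylcholine receptor has fired. Embryonic and newborn muscle uses developmental isoforms of myosin, actin, troponin and the acetylcholine receptor that adult muscle largely replaces.

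The library totals were 18380880 to 19581607 estimated counts in KO and 18757808 to 19643951 in WT. Ppp1r15b, which encodes the constitutive eIF2alpha phosphatase subunit CReP (chr1:133131166-133139800, GRCm38.p6), had 355, 428 and 557 counts in KO replicates 1 to 3, against 1707, 960 and 1675 counts in WT replicates 1 to 3. The groups did not overlap (log2 fold change -1.70, SE 0.242, edgeR adjusted p = 0.0297). The call was lost without KO replicate 1 or 2 or WT replicate 1 or 3 (adjusted p of 0.118 to 0.173). Chondrocyte markers summed to 16927, 18017 and 17556 TPM (a level scaled for transcript length and library size) in KO and to 16705, 19639 and 15442 TPM in WT, so the labelled cell type was abundant in every library. KO replicate 3 stood apart from its own group: over all genes its log2 CPM correlated with KO replicates 1 and 2 at r = 0.9346 and 0.9337, while those libraries correlated with each other at r = 0.9935. WT replicate 2 also stood apart, by less: it correlated with WT replicates 1 and 3 at r = 0.9823 and 0.9819, and those libraries with each other at r = 0.9938.

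Promoter windows of the 250 bases before a RefSeq start site (GRCm38.p6) were found for 29 of the 34 genes. They were searched on both strands for the E-box CANNTG, the 6 letters that MyoD family factors bind, and for the other motifs named below. The 4 windows printed are those that belong to the regulator Myog, to both acetylcholine receptor genes among the members and to the most abundant actin, whose levels are described below. Capitals mark each E-box.
Myog (chr1:134289754-134290003, plus strand): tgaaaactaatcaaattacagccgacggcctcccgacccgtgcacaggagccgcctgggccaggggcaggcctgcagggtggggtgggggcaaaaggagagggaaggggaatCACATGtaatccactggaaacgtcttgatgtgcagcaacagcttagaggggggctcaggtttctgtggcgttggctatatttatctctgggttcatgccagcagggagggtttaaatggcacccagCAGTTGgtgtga
Chrng (chr1:87205561-87205810, plus strand): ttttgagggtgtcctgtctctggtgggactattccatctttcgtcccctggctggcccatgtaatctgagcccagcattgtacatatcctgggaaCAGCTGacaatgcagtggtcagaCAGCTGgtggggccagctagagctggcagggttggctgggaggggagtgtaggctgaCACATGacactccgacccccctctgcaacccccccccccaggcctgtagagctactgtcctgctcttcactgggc
Chrna1 (chr2:73580339-73580588, minus strand): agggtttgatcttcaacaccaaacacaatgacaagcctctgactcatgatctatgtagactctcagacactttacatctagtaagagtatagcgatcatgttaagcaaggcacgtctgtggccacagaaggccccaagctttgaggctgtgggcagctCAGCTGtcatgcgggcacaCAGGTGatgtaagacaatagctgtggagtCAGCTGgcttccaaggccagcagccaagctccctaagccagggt
Acta1 (chr8:123894776-123895025, minus strand): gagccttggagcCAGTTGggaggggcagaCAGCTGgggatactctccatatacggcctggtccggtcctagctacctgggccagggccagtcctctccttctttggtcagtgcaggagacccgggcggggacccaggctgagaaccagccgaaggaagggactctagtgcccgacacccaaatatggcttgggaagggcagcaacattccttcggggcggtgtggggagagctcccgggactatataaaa
The E-boxes of the Myog window begin 138 and 12 bases before the start, and those of Chrng 155, 132 and 75 bases before it. In Chrna1 they begin 92, 73 and 44 bases before the start, and in Acta1 238 and 221 bases before it. The variant CAGCTG, itself a CANNTG, makes up 2 of the 3 boxes of Chrng, 2 of the 3 of Chrna1, 1 of the 2 of Acta1 and none of the 2 of Myog.

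Some genes have several start sites, so the 29 genes gave 34 windows. In Tnni1, Mb and Myh7 windows of the same gene overlap, so a site that they share is counted in each. An E-box was present in 27 of the 34 windows (79.4%), and in 66.2% of the 32851 windows of all genes. CAGCTG was found in 14 member windows (41.2%), and in 13.0% of all windows. The overlapping windows of Tnni1, and those of Mb, repeat the same CAGCTG. The variants CACCTG or CAGGTG were found in 7 member windows (20.6%), and in 17.2% of all. TATAAA was found in 7 member windows (20.6%), of Acta1, Myh1, Myh3, Myh4, Myh8, Myl1 and Tnnt1, and in 12.4% of all. A MEF2 site stood in 1 member window, that of Ttn, 166 bases before its start, and in 0.508% of all windows. These matches describe letters in the windows and were not tested.

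Muscle transcripts were present in all 6 libraries, at levels that differed widely between libraries of the same genotype. The 28 sarcomere, scaffold and calcium genes summed to 55.8, 56.3 and 739 TPM in KO replicates 1 to 3, against 2396, 299 and 2128 TPM in WT replicates 1 to 3. The 6 myogenic regulators summed to 1.56, 1.39 and 32.8 TPM in KO and to 70.4, 7.89 and 59.9 TPM in WT. KO replicates 1 and 2 were the lowest libraries for both sums, and KO replicate 3 lay above WT replicate 2 and below WT replicates 1 and 3, so the groups overlapped.

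**Figure D1:**
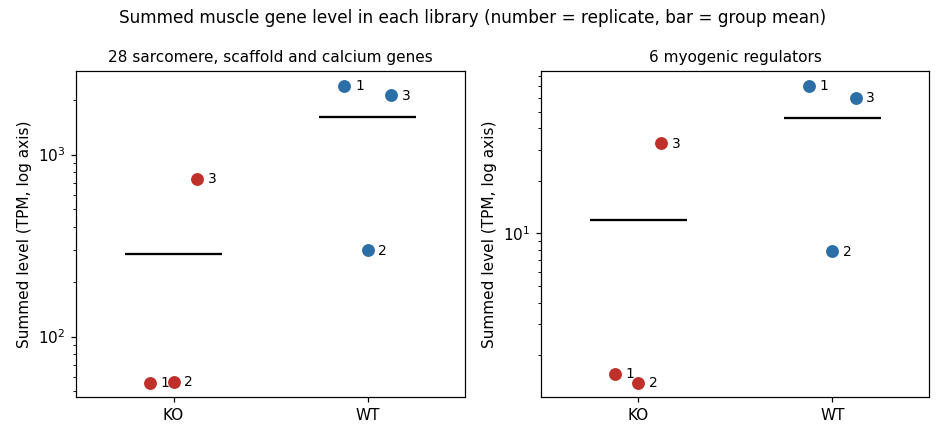
Summed TPM (log axis) of the 28 sarcomere, scaffold and calcium genes (left) and of the 6 myogenic regulators (right) in each KO and WT library, with replicate numbers and the group means as bars. KO replicates 1 and 2 sit at 55.8 and 56.3 TPM on the left, and KO replicate 3 (739 TPM) lies above WT replicate 2 (299 TPM).

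As group means the sarcomere, scaffold and calcium genes reached 284 ± 394 TPM in KO and 1607 ± 1141 TPM in WT (SD, n = 3 each), so that KO held 17.6% of the WT mean. For the regulators the means were 11.9 ± 18.1 TPM in KO and 46.1 ± 33.5 TPM in WT (SD, n = 3 each), and KO held 25.9% of the WT mean. Without KO replicate 3 these shares were 3.49% and 3.20%. All 34 genes together took 0.00574%, 0.00577% and 0.0772% of all TPM in KO, against 0.247%, 0.0307% and 0.219% in WT. In these bulk libraries fewer muscle cells and less muscle RNA per cell cannot be told apart.

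Of the 34 genes, 31 passed the filter on low counts. In the edgeR fit over 13692 genes and all 6 libraries, 0 of the 31 rose and 0 fell, against 2.51% of all genes called in either direction and 1.63% called lower in KO. All 31 had a lower estimate in KO, with a median log2 fold change of -2.30 against 0.01 over all genes tested, and a range of -2.86 (Myl1) to -1.04 (Myf5). At an unadjusted p under 0.05 there were 5 (Tnnt3, Tnni2, Myl4, Tnnt1 and Myf6), where 9.9% of all genes were lower at that p. The lowest adjusted p among members was 0.151, for Tnnt3. With limma-voom, which called 1.29% of all genes lower in KO, 0 of the 31 were called and 2 had an unadjusted p under 0.05. The DESeq2 Wald test, which called 4.92% of all genes lower in KO, called 3 members lower: Tnnt3 (adjusted p = 0.00402), Tnni2 (adjusted p = 0.0377) and Tnnt1 (adjusted p = 0.0445). For some members, Acta1, Actc1, Tnnt2 and Tnni1 among them, that test gave no adjusted p, so they could not be called by it.

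These calls depended on KO replicate 3. Without it, 30 of the 31 fell in edgeR, with log2 fold changes of -6.52 (Tnnt2) to -3.35 (Cdh15), and Myf5 did not (-2.24, adjusted p = 0.164). Calls were common in that fit: 28.5% of 13880 genes changed and 16.1% were lower in KO, and the common dispersion was 0.00829, against 0.0525 with all 6 libraries. The median log2 fold change of the members was then -4.89. Leaving out any other library gave 0 members called, when 0.999% of all genes (without WT replicate 2) or 0% (without KO replicate 1 or 2 or WT replicate 1 or 3) were lower in KO. Without both KO replicate 3 and WT replicate 2 all 31 fell, where 21.7% of 13804 genes did, at a common dispersion of 0.00221. These are the KO library with the highest and the WT library with the lowest summed level of the members. Leaving them out therefore widens the difference between the groups, and the calls follow from that choice. Where KO libraries had few counts, the size of a fold change depends on the prior count of the fit and sets no bound.

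**Figure D2:**
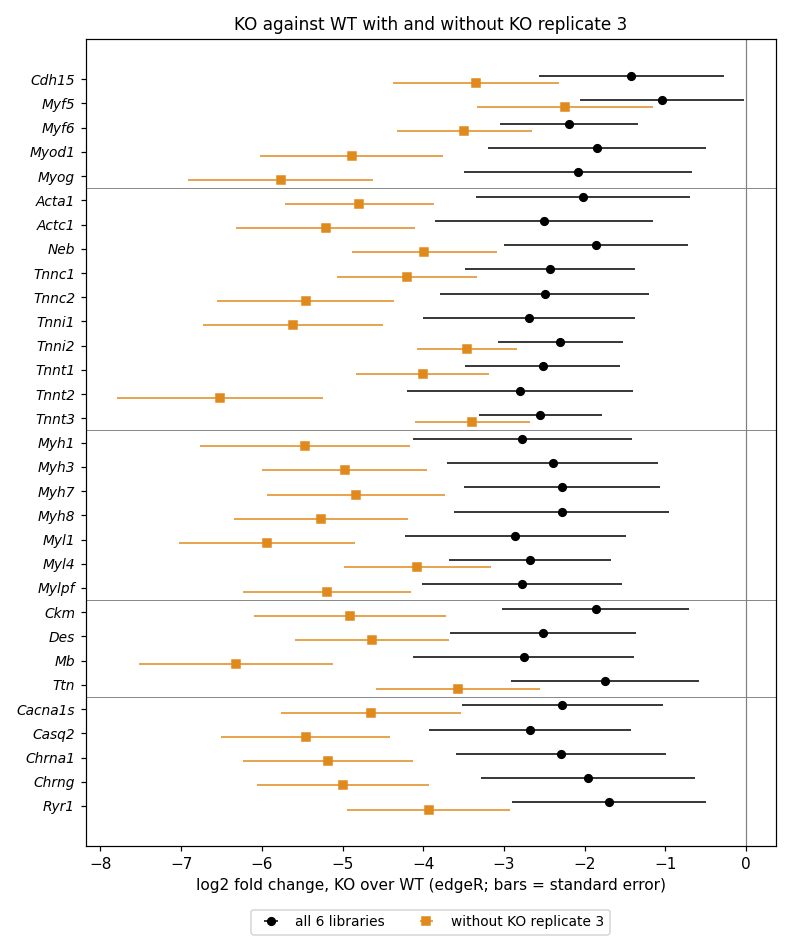
Log2 fold change, KO over WT (edgeR, bars show the standard error), of the 31 muscle genes tested, with all 6 libraries (black circles) and without KO replicate 3 (orange squares). The estimates lie between -2.86 and -1.04 with all libraries and between -6.52 and -2.24 without KO replicate 3.

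Among the regulators, Myog (chr1:134290004-134292548), the factor that starts terminal differentiation, had the highest level. It had 6, 6 and 245 counts in KO, against 546, 62 and 439 counts in WT. The values in TPM were 0.5, 0.52 and 19.3 in KO, against 43.5, 5.01 and 36.4 in WT. KO replicates 1 and 2 were almost without Myog transcripts, and KO replicate 3 stood between WT replicate 2 and the other WT libraries. The log2 fold change was -2.08 (SE 1.41, edgeR adjusted p = 0.484), and without KO replicate 3 it was -5.77 (SE 1.15, adjusted p = 0.00891).

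Myod1 (chr7:46376474-46379092), which can turn other cells into muscle cells, had the same order of libraries. Its counts were 6, 6 and 151 in KO, against 293, 26 and 249 in WT, and it did not pass the test (log2 fold change -1.85, SE 1.35, edgeR adjusted p = 0.515). Myf6, also known as MRF4, had 2, 3 and 15 counts in KO, against 46, 9 and 37 in WT. For Myf6 the log2 fold change was -2.20 (SE 0.851, edgeR adjusted p = 0.238). Both genes fell without KO replicate 3 (adjusted p of 0.0163 and 0.0188). Myf5, which precedes the others in most muscle precursors and neighbours Myf6 on chromosome 10, was close to absent everywhere, at 3, 1 and 11 counts in KO and 18, 1 and 12 counts in WT. Its groups overlapped (log2 fold change -1.04, SE 1.01, edgeR adjusted p = 0.639).

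Pax7 and Cdh15 mark the stem cell compartment of muscle. Pax7, the transcription factor of satellite cells, had 0, 0 and 4 counts in KO, against 0, 0 and 2 counts in WT. It did not enter the test, and a count of 0 allows up to 3 counts by counting error alone. Cdh15, which encodes M-cadherin of satellite cells and myoblasts, had 7, 2 and 47 counts in KO, against 76, 7 and 64 in WT. KO replicate 1 and WT replicate 2 were thus alike for Cdh15, and its log2 fold change was -1.42 (SE 1.15, edgeR adjusted p = 0.56).

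The summed level of regulators relative to contractile genes was alike in 5 of the 6 libraries, on few counts in KO replicates 1 and 2. In those libraries no regulator had more than 7 counts. Per 100 TPM of the 28 sarcomere, scaffold and calcium genes, the regulators held 2.79, 2.47 and 4.43 TPM in KO, against 2.94, 2.64 and 2.81 TPM in WT. KO replicate 3 had the highest ratio and the other 5 libraries lay close together. Per 100 TPM of Acta1, Myog reached 5.57, 9.04 and 13.9 TPM in KO, against 14.7, 13.0 and 13.0 TPM in WT. On that scale KO replicate 3 lay within the WT range, and KO replicates 1 and 2 rest on 6 Myog counts each.

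Thin filament genes included the gene with the highest mean level of the 34 in KO. Acta1 (chr8:123891758-123894775), the actin of mature skeletal muscle, was measured at 8.97, 5.75 and 139 TPM in KO, against 295, 38.6 and 279.6 TPM in WT. Actc1, the cardiac actin that developing skeletal muscle also uses, was measured at 3.37, 5.04 and 74.9 TPM in KO, against 227, 20.9 and 216 TPM in WT. For both actins KO replicate 3 lay above WT replicate 2, and the other WT libraries were the highest of all. Their log2 fold changes were -2.02 (SE 1.32, edgeR adjusted p = 0.468) for Acta1 and -2.50 (SE 1.35, edgeR adjusted p = 0.38) for Actc1. Actc1 made up 27.3%, 46.7% and 34.9% of the TPM of the pair in KO, against 43.5%, 35.1% and 43.6% in WT, with overlapping groups.

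Troponin is the calcium switch of the thin filament, and its 7 genes here code for tropomyosin-binding (Tnnt), inhibitory (Tnni) and calcium-binding (Tnnc) subunits. Fast-muscle Tnnt3 (chr7:142498771-142516213) was measured at 8.27, 7.22 and 27.0 TPM in KO, against 123, 22.2 and 102 TPM in WT. Slow-muscle Tnnt1 was measured at 1.87, 2.44 and 14.0 TPM in KO, against 50.4, 8.45 and 46.3 TPM in WT. Tnnt2, the cardiac form that immature skeletal muscle also makes, was measured at 0.33, 0.33 and 12.7 TPM in KO, against 43.1, 5.13 and 43.6 TPM in WT. KO replicates 1 and 2 retained the least of Tnnt2 and the most of Tnnt3 among these forms. For Tnnt3 the log2 fold change was -2.55 (SE 0.764, edgeR adjusted p = 0.151), for Tnnt1 -2.52 (SE 0.962, edgeR adjusted p = 0.232) and for Tnnt2 -2.80 (SE 1.40, edgeR adjusted p = 0.342).

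The inhibitory subunits followed. Slow Tnni1 was measured at 1.89, 1.65 and 37.4 TPM in KO, against 127, 15.1 and 119 TPM in WT. Fast Tnni2 (chr7:142441816-142444410), a near neighbour of Tnnt3, was measured at 0.97, 1.63 and 6.91 TPM in KO, against 26.0, 5.85 and 16.5 TPM in WT. In Tnni2 the values of KO replicate 3 and WT replicate 2 were close, whereas in Tnni1 KO replicate 3 was clearly the higher of these libraries. The log2 fold changes were -2.69 (SE 1.32, edgeR adjusted p = 0.331) for Tnni1 and -2.30 (SE 0.777, edgeR adjusted p = 0.189) for Tnni2. Slow Tnni1 took 66.1%, 50.3% and 84.4% of the TPM of the pair in KO, against 83.0%, 72.1% and 87.8% in WT, and KO replicates 1 and 2 were the lowest, on 25 and 26 counts for the pair.

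Tnnc1, the slow and cardiac calcium sensor, was measured at 7.77, 7.35 and 63.9 TPM in KO, against 208, 29.6 and 179 TPM in WT. Tnnc2, its fast counterpart, was measured at 1.32, 1.57 and 31.8 TPM in KO, against 104, 11.8 and 76.1 TPM in WT. Nebulin, encoded by Neb and spanning the length of the thin filament, had 25, 23 and 291 counts in KO, against 621, 76 and 501 counts in WT. All 3 genes had the same order of libraries, with KO replicates 1 and 2 lowest. None passed the test (edgeR adjusted p of 0.28 for Tnnc1, 0.361 for Tnnc2 and 0.434 for Neb), with log2 fold changes of -2.43, -2.50 and -1.87.

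**Figure D3:**
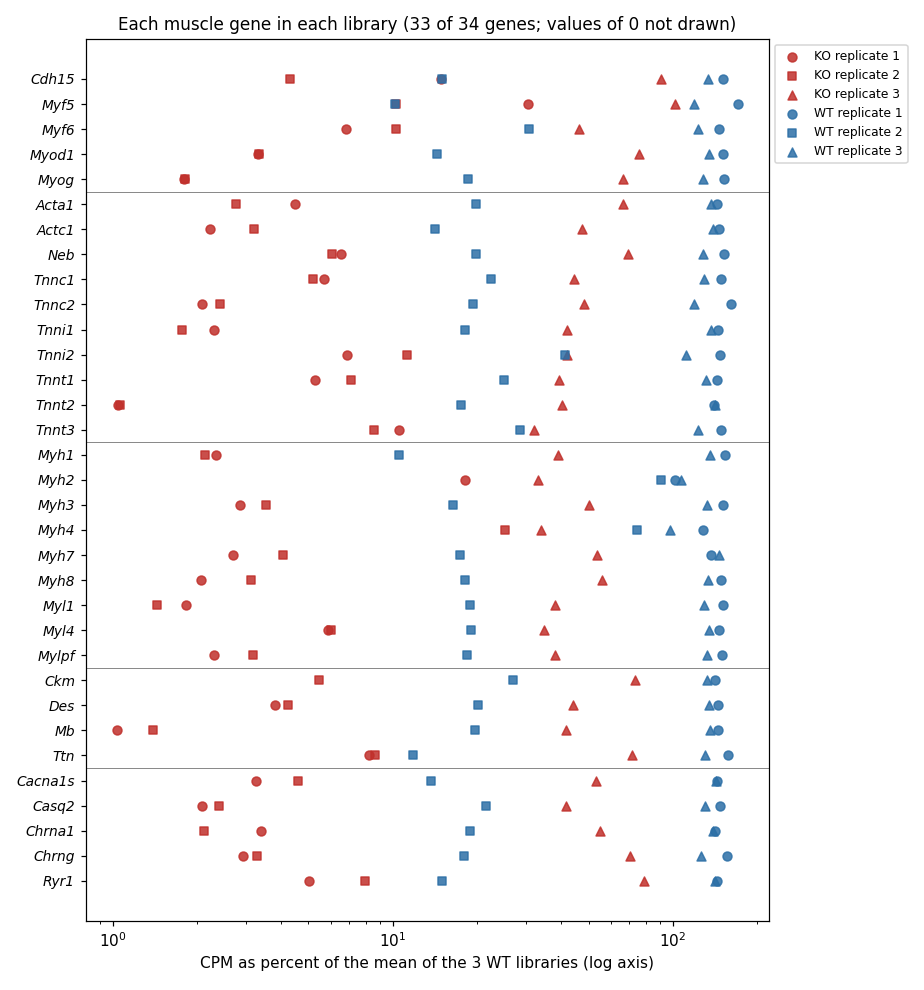
Level of each muscle gene in each library as a percent of the mean of the 3 WT libraries (CPM, log axis), for 33 of the 34 genes and with values of 0 not drawn. Red marks KO and blue WT, and KO replicate 3 (red triangles) lies above WT replicate 2 (blue squares) in all but Myh2 and Myh4, with Tnni2 and Tnnt3 nearest to a tie.

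Thick filament genes were led by the light chains. Myl1 (chr1:66924295-66947932), the essential light chain of fast muscle, was measured at 4.05, 3.32 and 93.9 TPM in KO, against 365, 43.0 and 309 TPM in WT. Mylpf, the fast regulatory light chain, was measured at 4.97, 7.12 and 89.2 TPM in KO, against 342, 39.6 and 301 TPM in WT. Myl4, the essential light chain of atrium and of embryonic skeletal muscle, was measured at 6.62, 6.49 and 43.3 TPM in KO, against 182, 22.2 and 166 TPM in WT. Myl1 had the highest level of the 34 genes in WT, and Myl4 lay above it in KO replicates 1 and 2. The log2 fold changes were -2.86 (SE 1.37, edgeR adjusted p = 0.324) for Myl1, -2.78 (SE 1.24, edgeR adjusted p = 0.293) for Mylpf and -2.68 (SE 1.00, edgeR adjusted p = 0.224) for Myl4.

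Myl1 makes a longer and a shorter light chain from separate start sites. Its most abundant listed transcript took all 32 and all 25 Myl1 counts in KO replicates 1 and 2 (exact 95% intervals of 89.1% to 100% and 86.3% to 100%) and 69.4% in KO replicate 3 (65.9% to 72.7%). In WT it took 74.6% (73.0% to 76.2%), 74.8% (69.9% to 79.5%) and 75.7% (73.9% to 77.5%). These intervals cover counting error only, and the split between transcripts is the estimate of the program that made the table. KO replicate 3 was therefore the lowest of the 6 libraries and the other KO libraries the highest. The mean share was 89.8% ± 17.7 in KO and 75.1% ± 0.587 in WT (SD, n = 3 each), a difference of 14.7 points with a two-sided exact permutation p of 0.4, where 0.1 is the smallest p that this design allows.

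The 6 myosin heavy chain genes hold the motor of the thick filament. Myh3, the embryonic chain (chr11:67078273-67102291), was measured at 1.11, 1.42 and 20.2 TPM in KO, against 60.1, 6.19 and 52.0 TPM in WT. Myh8, the perinatal chain (chr11:67277124-67308634), was measured at 0.35, 0.55 and 9.77 TPM in KO, against 25.6, 2.97 and 22.9 TPM in WT. Myh1, an adult fast chain, was measured at 0.2, 0.19 and 3.4 TPM in KO, against 13.3, 0.87 and 11.6 TPM in WT. All 3 had KO replicates 1 and 2 lowest, and none passed the test (edgeR adjusted p of 0.381 for Myh3, 0.413 for Myh8 and 0.331 for Myh1). Myh7, the slow chain, had 2, 3 and 44 counts in KO, against 109, 13 and 111 counts in WT (edgeR adjusted p = 0.37). The adult fast chains Myh2 and Myh4 were near the limit of detection in every library and did not enter the test. Myh2 had 1, 0 and 2 counts in KO, against 6, 5 and 6 in WT, and Myh4 had 0, 2 and 3 counts in KO, against 11, 6 and 8 in WT. They were the only members whose groups did not overlap, 2 of 34, where 14.5% of all genes tested lay lower in every KO than in every WT library.

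Developmental chains made up most of the myosin heavy chain in every library. Myh3 and Myh8 together took 84.9%, 87.2% and 87.4% of the summed TPM of the 6 genes in KO, against 84.5%, 87.3% and 84.2% in WT. The groups overlapped, with means of 86.5% ± 1.40 in KO and 85.4% ± 1.71 in WT (SD, n = 3 each), a difference of 1.14 points that is smaller than either SD. Myh3 alone took 64.5%, 62.8% and 59.0% in KO, against 59.3%, 59.0% and 58.5% in WT. Adult fast Myh1 took 11.6%, 8.41% and 9.91% in KO, against 13.1%, 8.29% and 13.0% in WT. The shares of KO replicates 1 and 2 rest on 87 and 110 counts over the 6 genes, and those of the other libraries on 551 to 5407. Between 3.85% and 9.46% of the 100-base words of Myh1, Myh2, Myh4 and Myh8 occur in another of these genes, so part of their counts may be split by the counting program. Myh3 and Myh7 shared no such word with the other chains compared, yet their estimated counts were not all whole either. Genes outside these 6 were not compared.

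**Figure D4:**
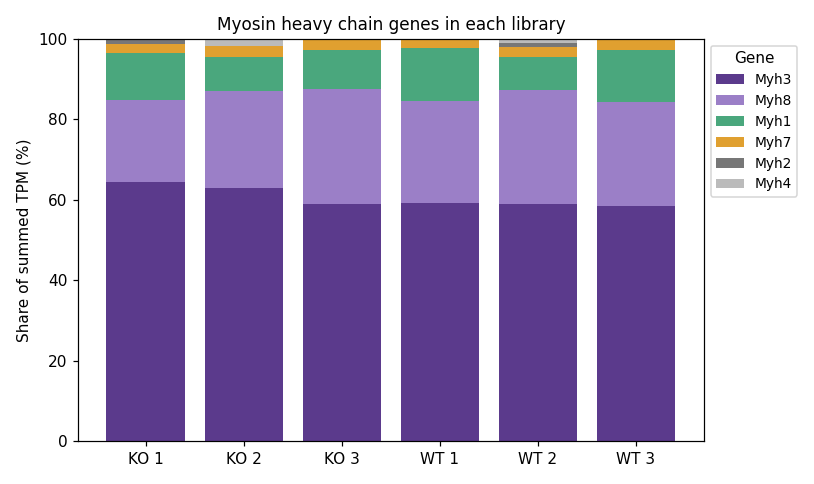
Share (%) of the summed TPM of 6 myosin heavy chain genes taken by each gene in each library, KO at left and WT at right. Embryonic Myh3 and perinatal Myh8 together fill 84.9%, 87.2% and 87.4% of the KO bars and 84.5%, 87.3% and 84.2% of the WT bars.

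Scaffold and metabolic genes showed the same libraries high and low. Ttn, which encodes titin, the spring that spans the sarcomere from Z-disc to M-line, had 48, 50 and 460 counts in KO, against 987, 69 and 775 counts in WT. Des, the intermediate filament that ties neighbouring Z-discs together, had 38, 42 and 485 counts in KO, against 1550, 202 and 1378 counts in WT. Mb, which encodes the oxygen store myoglobin, was measured at 0.39, 0.47 and 14.8 TPM in KO, against 50.6, 6.82 and 47.4 TPM in WT. For Ttn, WT replicate 2 lay close to KO replicates 1 and 2, whereas for Mb it was well above them. Ckm, the muscle creatine kinase that buffers ATP, had only 0, 1 and 15 counts in KO, against 28, 5 and 25 counts in WT. The log2 fold changes of these 4 genes ran from -2.75 (Mb) to -1.75 (Ttn), with edgeR adjusted p of 0.306 to 0.475, and all 4 fell without KO replicate 3.

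Genes of excitation and calcium release included both subunits shown above with their promoters. Chrna1 (chr2:73563281-73580338), the acetylcholine-binding receptor subunit, was measured at 0.58, 0.37 and 9.83 TPM in KO, against 24.9, 3.16 and 24.4 TPM in WT. Chrng (chr1:87205811-87211835), the subunit of the fetal receptor, was measured at 0.57, 0.68 and 14.6 TPM in KO, against 31.3, 3.4 and 25.5 TPM in WT. In both, KO replicates 1 and 2 were lowest and KO replicate 3 was between WT replicate 2 and the other WT libraries. Their log2 fold changes were -2.30 (SE 1.30, edgeR adjusted p = 0.399) and -1.95 (SE 1.32, edgeR adjusted p = 0.484). Chrne, the adult subunit that takes the place of Chrng, had at most 2 counts in any library.

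Cacna1s, the voltage sensor in the fibre's membrane, had 5, 7 and 90 counts in KO, against 236, 21 and 224 counts in WT. Ryr1, the calcium release channel that it opens, had 7, 11 and 121 counts in KO, against 215, 21 and 201 counts in WT. Casq2, a calcium-binding protein of the reticulum, was measured at 0.34, 0.4 and 7.0 TPM in KO, against 24.4, 3.36 and 21.5 TPM in WT. All 3 repeated the order of libraries of the receptor genes. None passed the test, with log2 fold changes of -2.28 (edgeR adjusted p = 0.383), -1.70 (adjusted p = 0.504) and -2.68 (adjusted p = 0.312), and all 3 fell without KO replicate 3.

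That order held across nearly the whole set. In CPM, KO replicates 1 and 2 lay below every WT library in 32 of the 34 genes (all but Myf5 and Pax7), where 29.8% of all genes tested did so. Cdh15 is counted among these, and in the full order below, on a near tie. It had 7 counts in both KO replicate 1 and WT replicate 2, at 0.3803 and 0.3808 CPM but 0.3 and 0.29 TPM. KO replicate 3 lay above WT replicate 2 in 32 of 34 (all but Myh2 and Myh4), where 49.4% of all genes did. It lay below WT replicates 1 and 3 in 33 of 34, all but Pax7, where 44.6% of all genes did. The full order, with KO replicates 1 and 2 lowest, then WT replicate 2, KO replicate 3 and the other WT libraries, was met by 30 of the 34 genes and by 2.37% of all genes tested. The orders counted here were read from the members' own values, so their contrast with all genes is a description and no test. Genes that vary together between libraries are not independent of each other.

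How far KO lay below the WT mean varied among genes. Over the 25 sarcomere, scaffold and calcium genes with at least 100 counts in all, the median level relative to the WT mean was 2.93%, 3.29% and 44.5% in KO replicates 1 to 3, against 147%, 18.9% and 133% in WT replicates 1 to 3. In KO replicate 1 the genes ran from 1.03% (Mb) to 10.5% (Tnnt3), and in KO replicate 2 from 1.06% (Tnnt2) to 11.2% (Tnni2). KO replicate 3 ran from 31.9% (Tnnt3) to 78.8% (Ryr1), and WT replicate 2 from 10.6% (Myh1) to 41.1% (Tnni2). Tnnt3 and Tnni2 were thus at the top in the libraries with few muscle transcripts, and Tnnt3 was at the bottom in KO replicate 3. The 4 regulators with that many counts had medians of 5.05%, 3.82% and 71.2% in KO, against 151%, 16.7% and 131% in WT.

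Other genes of muscle were taken from lists by function. Of 10 tested genes of fusion and of satellite cells, 0 were called in edgeR with all 6 libraries and 2 had an unadjusted p under 0.05, while without KO replicate 3, 6 of 11 fell and 2 rose. The myoblast fusion protein gene Mymk had 14, 18 and 392 counts in KO, against 660, 66 and 656 counts in WT. Vcam1, an adhesion molecule and the most abundant of that list, had 1246, 1266 and 269 counts in KO, against 1164, 865 and 1061 counts in WT. It did not have the order of libraries of the 34 genes, and KO replicate 3 was lowest (log2 fold change -0.11, SE 0.563, edgeR adjusted p = 0.941).

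Among 8 tested further thick filament genes 0 were called and 1 had an unadjusted p under 0.05, and 7 fell without KO replicate 3. Mybph, a myosin-binding protein gene, had 20, 8 and 225 counts in KO, against 860, 90 and 691 counts in WT. Myom1, which links filaments at the M-line, had 219, 190 and 286 counts in KO, against 432, 337 and 398 counts in WT. The groups of Myom1 did not overlap, but the gene missed the threshold (log2 fold change -0.75, SE 0.146, edgeR adjusted p = 0.0586).

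Of 22 further thin filament and Z-disc genes 1 fell with all 6 libraries and 19 fell without KO replicate 3. The gene that fell was Cav3, the caveolin of muscle membranes, with 61, 60 and 81 counts in KO, against 244, 130 and 227 counts in WT (log2 fold change -1.57, SE 0.259, edgeR adjusted p = 0.042). Of 20 further excitation and calcium genes 1 fell, and without KO replicate 3, 13 fell and 1 rose. Jph2, a junctophilin that holds the reticulum at the surface membrane, had 164, 189 and 237 counts in KO, against 499, 320 and 483 counts in WT (log2 fold change -1.14, SE 0.192, edgeR adjusted p = 0.0443). Of 9 tested genes of muscle metabolism 1 fell, and of 12 tested without KO replicate 3, 8 fell and 1 rose. Eno3, the muscle enolase of glycolysis, had 257, 231 and 282 counts in KO, against 608, 409 and 611 counts in WT (log2 fold change -1.08, SE 0.160, edgeR adjusted p = 0.0331). In these 3 genes every KO library, replicate 3 included, lay below every WT library, unlike the tested members. Their calls were lost without KO replicate 1 or 2 or WT replicate 1 or 3, when no gene of the table was called.

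The dystrophin complex list, 8 genes that anchor the fibre to its surroundings, had 0 called with all libraries (3 at an unadjusted p under 0.05) and 3 that fell without KO replicate 3. Its most abundant members were Sgcd, with 1714, 1955 and 2462 counts in KO against 1752, 1574 and 1582 in WT, and Sgcb, with 1412, 1415 and 1040 counts in KO against 1557, 1321 and 1493 in WT. Non-muscle forms of the same families also had 0 of 9 called (2 at an unadjusted p under 0.05). Cytoplasmic Actg1 had 48837, 46058 and 43415 counts in KO, against 51150, 54462 and 51207 counts in WT, and Actb had 38622, 35195 and 40484 counts in KO, against 45179, 44207 and 47043 counts in WT. Neither actin showed the order of libraries of Acta1, and their log2 fold changes were -0.18 (edgeR adjusted p = 0.505) and -0.26 (edgeR adjusted p = 0.235).

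The 5 genes outside the set whose log2 CPM over the 6 libraries was most like the mean of the 31 tested members were Atp2a1 (Pearson r = 0.9996), Lmod3 (r = 0.9992), Actn2 (r = 0.9990), Siglec1 (r = 0.9981) and Smyd1 (r = 0.9980). These correlations are descriptions over 6 libraries, whose depth and make-up all genes share. Atp2a1, the calcium pump of fast fibres, had 20, 21 and 314 counts in KO, against 1024, 114 and 883 counts in WT. Lmod3, a leiomodin of the thin filament, and Actn2, an actinin of the Z-disc, had the same order. Siglec1, a lectin of macrophages, had 5, 6 and 28 counts in KO, against 46, 15 and 41 counts in WT.

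Markers of other cell types shared part of this order. The 11 macrophage markers summed to 27.5, 28.9 and 286.5 TPM in KO, against 687, 367 and 691 TPM in WT. KO replicates 1 and 2 were lowest here too, but KO replicate 3 lay below every WT library. C1qa and Cd14 fell with all 6 libraries (log2 fold changes of -4.66 and -2.75, edgeR adjusted p of 0.0152 and 0.0195) and all 11 fell without KO replicate 3. The neural crest and Schwann cell factor Sox10 had 0, 0 and 129 counts in KO, against 147, 30 and 142 counts in WT, the order of libraries of the muscle genes. Of 5 tested Schwann cell and neuron genes 0 were called (1 at an unadjusted p under 0.05), and the most abundant, S100b, had 2028, 1805 and 3354 counts in KO, against 1615, 2476 and 1608 counts in WT. The part of these cell types in the muscle gene result was not tested.

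Adipocyte markers summed to 66.8, 61.4 and 85.8 TPM in KO, against 2312, 1070 and 1970 TPM in WT, and 7 of 7 tested fell with all 6 libraries, Cfd (log2 fold change -7.66, edgeR adjusted p = 0.0126) and Cidec (-6.65, adjusted p = 0.0294) by the most. Here KO replicate 3 was close to the other KO libraries, unlike in the muscle genes. Smooth muscle markers summed to 494, 501 and 319 TPM in KO, against 758, 647 and 907 TPM in WT, and 1 of 7 fell (Tagln, log2 fold change -1.23, edgeR adjusted p = 0.0263). KO replicate 3 was the lowest library for this list. Of 7 heart markers in the table, Myh6, Nppa, Nppb, Nkx2-5 and Hcn4 had at most 5 counts in any library, and the tested Tbx5 and Tnni3 were not called (edgeR adjusted p of 0.413 and 0.993). Endothelial markers summed to 14.7, 14.2 and 16.7 TPM in KO, against 17.0, 15.6 and 20.0 TPM in WT. With all 6 libraries 0 of 6 tested genes were called and 0 had an unadjusted p under 0.05. Egfl7 and Tek, the most abundant, had edgeR adjusted p of 0.958 and 0.951. Egfl7, with means of 10.79 TPM in KO and 10.72 TPM in WT, made up most of each sum. The median log2 fold change of the tested genes was -0.75, and without KO replicate 3, 3 of 6 fell and 0 rose. KO replicates 1 and 2 lay below every WT library in 5 of the 8 endothelial genes. Fibroblast markers summed to 10273, 10563 and 5466 TPM in KO, against 13407, 11476 and 13300 TPM in WT, and 1 of 7 fell (Vim, log2 fold change -0.63, edgeR adjusted p = 0.0489). KO replicate 3 was the lowest library for this list too, and its part in the muscle gene result was not tested. Of 10 chondrocyte genes 2 rose (Col9a2 and Col11a2, log2 fold changes of 1.05 and 0.79, edgeR adjusted p of 0.0496 and 0.0466). Markers of red blood cells summed to at most 1.01 TPM in a library.

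**Figure D5:**
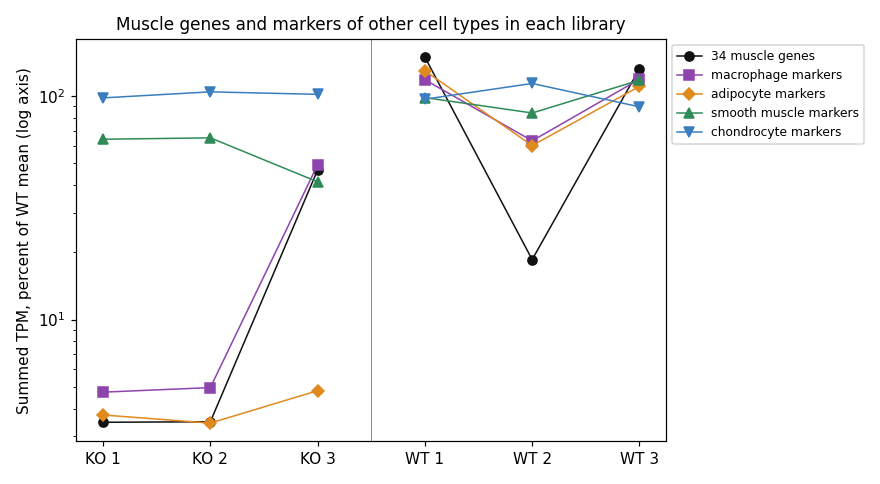
Summed TPM of the 34 muscle genes and of marker lists of 4 other cell types in each library, as a percent of the WT mean (log axis), KO at left and WT at right. The muscle and macrophage lines are higher in KO replicate 3 (772 TPM for muscle) than in KO replicates 1 and 2 (57.4 and 57.7 TPM), while the adipocyte line stays low in KO and the chondrocyte line is nearly flat.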

How the data were processed

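Transcripts of 3 KO and 3 WT libraries was analysed, grouped by their titles. The deposited gene table gives estimated counts under Entrez identifiers (12.9% not whole), and a deposited transcript table gives them per RefSeq transcript. Both deposited tables also hold TPM values and FPKM values, which the authors normalised for transcript length and library size. Per the submitters' processing notes and the labels' protocols, reads were aligned with STAR to mm10 and counted with featureCounts 2.0.0, and groups were compared with DESeq2 1.28.1. That counter gives whole numbers, and for the program, annotation and strand setting that made these estimated values the answer is not given in the sources used here. Gene positions and promoter sequences came from RefSeq tables of GRCm38.p6, the build of mm10, in which 17551 of 17666 identifiers matched. Promoter windows for Myf6, Myod1, Neb, Tnni2 and Tnnt3 were not used here.

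Estimated counts were rounded, filtered with filterByExpr (at least 10 counts in enough libraries and 15 in total), TMM-normalised and tested by the edgeR quasi-likelihood method (two-sided, Benjamini-Hochberg adjustment over 13692 genes), with R 4.3.3, edgeR 4.0.16, limma 3.58.1, DESeq2 1.42.0, data.table, version 1.17.8, Python 3.11.15, pandas 2.3.3, numpy 2.4.6, SciPy 1.17.1 and matplotlib 3.10.9. A standard error is the log2 fold change over the square root of F. CPM rests on TMM library sizes, with a prior count of 2 on the log2 scale. The words rose and fell are used for an adjusted p below 0.05. With a common dispersion of 0.0525, replicates varied by 22.9%, more than counting error for abundant genes. All members are named. From each other list the rule took up to 2 called genes per direction by size of change or, where it had no called gene, its 2 most abundant, and it took the 5 genes most like the members' mean. Results of 2 genes named by it are not reported here. Mymk, Chrne, Sox10, the low heart markers and the genes of the closing observations were chosen after their values were seen. The members and the other lists were chosen with earlier results of these data known. Alternatives were other scalings, filters, tests and units, the replicate number as a block, and libraries left out. The scripts were tested on simulated data.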

Additional observations from a re-analysis of the deposited data

How the results depend on the processing

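Of all genes tested, 121 rose and 223 fell. With the DESeq2 Wald test 497 rose and 674 fell, without both WT replicate 2 and KO replicate 3 these were 2416 and 3000, and with each library left out in turn they ran over 0 to 1731 and 0 to 2231. Of the members 0 fell, and 0 to 30 fell with each library left out in turn (30 without KO replicate 3, 0 without any other), 3 with the DESeq2 Wald test and 31 without both WT replicate 2 and KO replicate 3. The DESeq2 Wald test gave some members, such as Acta1 and Actc1, no adjusted p and so could not call them. With DESeq2 size factors, library size only, limma-voom, no filter beyond 1 count or the replicate block 0 members were called, when 1.56%, 1.4%, 1.29%, 1.08% and 0.0292% of all genes were called lower in KO. Same-numbered libraries deviated from their group means with correlations of -0.143, 0.215 and 0.238 over 13692 genes. With so few libraries per group, these values cannot show whether the replicate numbers pair the samples. With the replicate block in edgeR 1 gene rose and 4 fell of all genes. At an unadjusted p under 0.05 there were 24 members, where 2057 of 13692 genes reached that p in either direction. The 31 tested members had log2 fold changes of -3.73 to -1.05 in that fit. Ppp1r15b was not called with the block (log2 fold change -1.67, edgeR adjusted p = 0.116). The estimates of the 31 members were below 0 under every alternative. The other scalings moved the median of all genes by 0.00284 (DESeq2 size factors) and 0.0214 (library size only). In FPKM in place of TPM, KO held 17.9% of the WT mean for the sarcomere, scaffold and calcium genes and 26.2% for the regulators, and with each library left out in turn these shares ran from 3.49% to 24.7% and from 3.20% to 37.3%. The difference in the share of Myh3 and Myh8 ran from 0.566 to 2.12 points and that of the Myl1 transcript from 9.62 to 24.9 points. Depth limits Pax7, Myh2, Myh4, Myf5 and Ckm, which have at most 28 counts in any library, and all isoform shares of KO replicates 1 and 2. The cause of the changes with KO replicate 3 was not tested.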

Other observations

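Among genes of fusion and satellite cells, Met, the receptor that muscle precursors use to migrate into the limb, had 209, 265 and 957 counts in KO, against 380, 339 and 368 counts in WT. KO replicate 3 was highest, and the log2 fold change was 0.35 (edgeR adjusted p = 0.777), against -0.56 (adjusted p = 0.0118) without that library. Heyl had 5, 3 and 6 counts in KO, against 75, 6 and 82 counts in WT. KO replicate 3 and WT replicate 2 were both low for Heyl, unlike for Myog. The neural crest factor Foxd3 had 0, 0 and 45 counts in KO, against 63, 10 and 65 counts in WT, the order of libraries of Sox10. That order was met by 2 of the 8 listed Schwann cell and neuron genes. Cox6a2, a muscle and heart subunit of cytochrome oxidase, had 234, 190 and 432 counts in KO, against 150, 110 and 163 counts in WT, the reverse direction of the contractile genes (log2 fold change 1.00, edgeR adjusted p = 0.155).

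The ratio of KO replicate 3 to WT replicate 2 in TPM was taken only over genes with at least 20 counts in both libraries. It differed among members with transcript length, in classes chosen after the values were seen. It had a median of 2.22 (1.18 to 3.86) over 14 members with transcripts under 1500 bases, 3.11 (2.08 to 5.67) over 5 members of 1500 to 5000 bases and 3.91 (3.27 to 6.56) over 7 members above 5000 bases. Over all tested genes in the same classes the medians were 0.986, 1.07 and 1.12. Between KO replicate 3 and WT replicate 1 the members' medians were 0.294, 0.395 and 0.382. These are 2 libraries in each ratio, with no replicate check.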
